A study of Mus musculus with 7 samples.

Results

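After lipopolysaccharide (LPS) was given into the airway, lung myeloid cells with a bright ferritin heavy chain reporter were compared with cells with a dim reporter from untreated lungs. The members are libraries: 3 of LPS Fth1-high cells and 2 of untreated Fth1-low cells, chosen by their labels, 5 of the 7 libraries sequenced. All mice carried the reporters Fth1-mScarlet and Lyz2GFP. Lyz2 is active in monocytes, macrophages and neutrophils alike. Treated mice were sedated with isoflurane and received 20 µg of E. coli LPS in 50 µl through the trachea, and their lungs were taken 3 days later. Untreated mice received no LPS. Cells positive for Lyz2GFP, CD11b and Ly6C and negative for Ly6G were sorted from digested lung, and the mScarlet signal then set the low or the high gate. The remaining group, 2 libraries of LPS Fth1-low cells, entered the model as a shared source of spread and is given beside the named genes. The groups compared differ in treatment and in gate at once. Bright cells of untreated lungs are not analysed here, so the parts of treatment and gate cannot be told apart. The labels do not state age, sex, strain, how many mice stand behind a library or whether a mock instillation was done, so p-values measure library-to-library spread and some of it may be technical.

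Ly6C+ monocytes circulate in blood, enter injured tissue and can mature there into macrophages. Another monocyte state, the patrolling or nonclassical monocyte, depends on the nuclear receptor gene Nr4a1 and stays largely inside vessels. LPS is sensed by Tlr4 with its co-receptor Cd14 and switches on cytokine, chemokine and nitric oxide genes in these cells. Ferritin heavy chain, the product of Fth1, oxidises and stores iron, and macrophages make much of it when they take up iron, haem or dying cells.

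The 5 libraries held between 10459703 and 27997007 counts. Among the 13665 genes tested, the Pearson correlation of log2 values between libraries was 0.965 for the untreated pair and 0.959 to 0.979 among the LPS Fth1-high libraries (across genes, which are not independent replicates). LPS Fth1-low replicate 1 stood apart, with 637787 counts, of which 18.7% fell on ribosomal RNA genes. Untreated replicate 1 held more lung epithelial and endothelial RNA than the other 4: the 14 epithelial markers summed to 1003 CPM (counts scaled to library size) there, 91.2 CPM in untreated replicate 2 and 113 to 178 CPM among LPS Fth1-high libraries, and none of the 14 passed the test. The 10 endothelial markers summed to 385 CPM there, 132 CPM in untreated replicate 2 and 30.5 to 187 CPM among LPS Fth1-high libraries, and none of the 10 passed the test. In untreated replicate 2, Hopx made up most of the epithelial sum, at 85.3 CPM, and Vwf most of the endothelial one, at 80.6 CPM. Hopx stood at 147 CPM in untreated replicate 1 and at 84.1 to 97.5 CPM among LPS Fth1-high libraries. The epithelial marker Sftpc was at 494 CPM in untreated replicate 1, 1.40 CPM in replicate 2 and 2.07 to 40.5 CPM among LPS Fth1-high libraries. Xist was at 3.58 CPM in untreated replicate 1 against 274 CPM in replicate 2, and ran from 1.95 to 363 CPM over the LPS Fth1-high libraries. The Y-linked gene Ddx3y gave 97.9 and 0.186 CPM in untreated cells, against 78.3, 68.8 and 1.66 CPM in LPS Fth1-high cells, so the levels of both genes differed within both groups. In bulk RNA, fewer cells of a type and less RNA per cell cannot be told apart, and this holds for each result below.

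Fth1, the gene that set the gate, stood at 1786 and 1672 CPM in untreated cells against 13231, 21000 and 20473 CPM in LPS Fth1-high cells, a log2 difference of 3.40 that is a description, since the gate selected for it. Its partner in the ferritin shell, Ftl1, did not set the gate. It was at 522 and 440 CPM in untreated cells and at 1042, 1451 and 1620 CPM in LPS Fth1-high cells. This is a log2 difference of 1.51 ± 0.28 (SE), with an adjusted p of 0.00362, and 0.052 without untreated replicate 2. Both ferritin genes have near-identical processed copies in the mouse genome, and the labels do not say how reads shared with these were counted. The sort proteins were also seen in RNA. Lyz2, the lysozyme gene of myeloid cells, was at 12500 and 11153 CPM in untreated and 6140, 8094 and 9659 CPM in LPS Fth1-high cells, a difference that did not pass the test (adjusted p = 0.182). Itgam, which encodes CD11b, was at 937 and 1184 against 1602, 2109 and 1533 CPM and did not pass it either (adjusted p = 0.0832, and 0.0465 without the shallow LPS Fth1-low library). Ly6c2, one of the genes of the Ly6C antigen, rose from 562 and 765 to 1981, 2980 and 1854 CPM, with a log2 difference of 1.78 ± 0.33 (SE) and an adjusted p of 0.00387, which became 0.054 without untreated replicate 1. Ly6g, the neutrophil antigen gated out, had at most 2 counts in any library.

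The span between these groups was wide. Of 13665 genes tested with edgeR's quasi-likelihood test, 1690 were higher (12.4%) and 1625 lower (11.9%) in LPS Fth1-high cells at a Benjamini-Hochberg adjusted p below 0.05, 24.3% in all, and such genes are termed called below. The median log2 difference of all genes tested was 0.03, so the scale was centred. More than a 4-fold change was seen in 684 of the genes called higher and in 532 of those called lower, and more than a 32-fold change in 168 and 61. The genes called higher made up 8.32% and 8.72% of all CPM in the untreated libraries, and in LPS Fth1-high cells 28.1%, 32.6% and 31.1%. Those called lower made up 25.2% and 27.1% in the untreated libraries, and 9.96%, 9.68% and 9.81% in LPS Fth1-high cells. Between the other pairs of groups, fitted in the same model and sharing libraries with this one, 503 genes (3.68%) were higher and 625 (4.57%) lower in LPS Fth1-high than in LPS Fth1-low cells, and 409 (2.99%) were higher and 86 (0.629%) lower in LPS Fth1-low than in untreated cells. Without untreated replicate 1 the main counts fell to 955 higher and 963 lower, and without replicate 2 to 973 and 948. Without LPS Fth1-high replicate 2 they were 1162 and 1055.

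**Figure D1:**
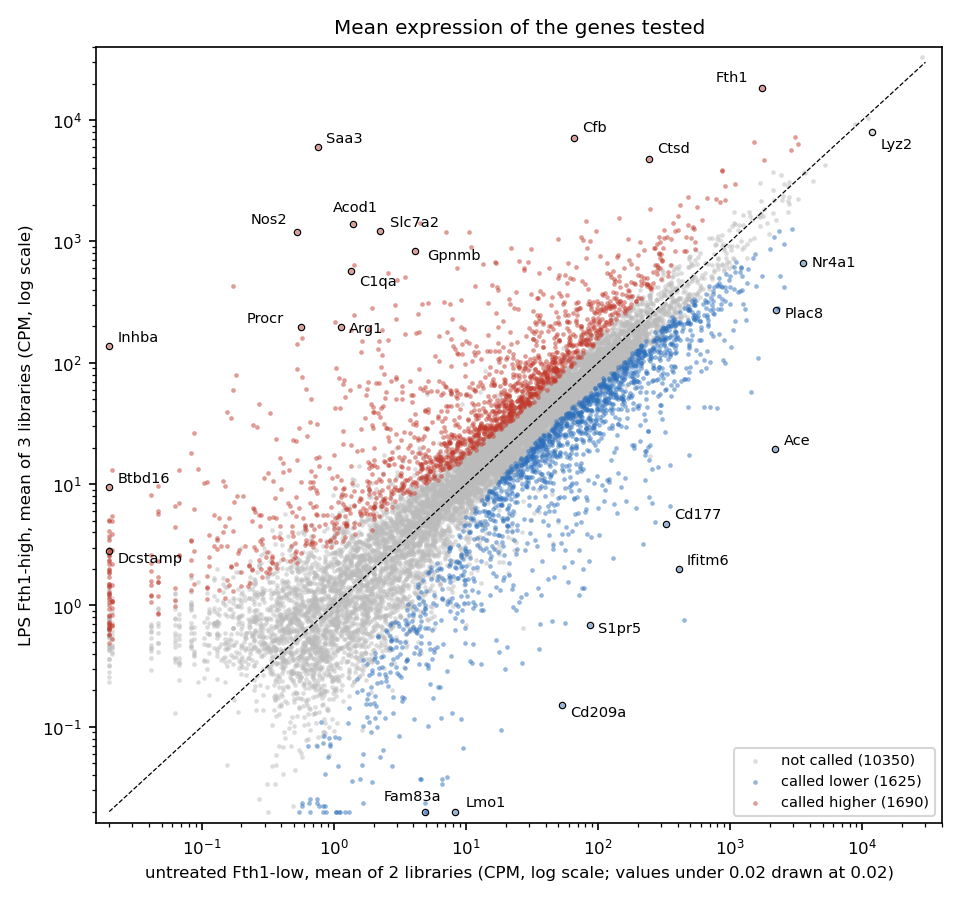
Each point is a gene, with its mean CPM in the 2 untreated Fth1-low libraries on the x axis and in the 3 LPS Fth1-high libraries on the y axis, both on log scales; red points were called higher, blue points lower and grey points not called, and circled points are named. Saa3 and Inhba lie far above the dashed line of equal level, Ace and Ifitm6 far below it, and Lyz2 close to it.

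The calls reached down to weak genes. Grouped by the mean in the group where a gene was higher, 43.5% of 2574 genes at 100 CPM and over were called, 25.5% of 6202 genes at 10 to 100 CPM and 15.3% of 3707 genes at 1 to 10 CPM. Under 1 CPM, 3.81% of 1182 genes were called. The median size of the called differences was 4.65 on the log2 scale under 1 CPM and 2.83 at 1 to 10 CPM. It was 1.26 at 10 to 100 CPM and 1.37 at 100 CPM and over. A weak gene needs a large difference to pass the test, so these sizes do not show that weak genes changed more.

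**Figure D2:**
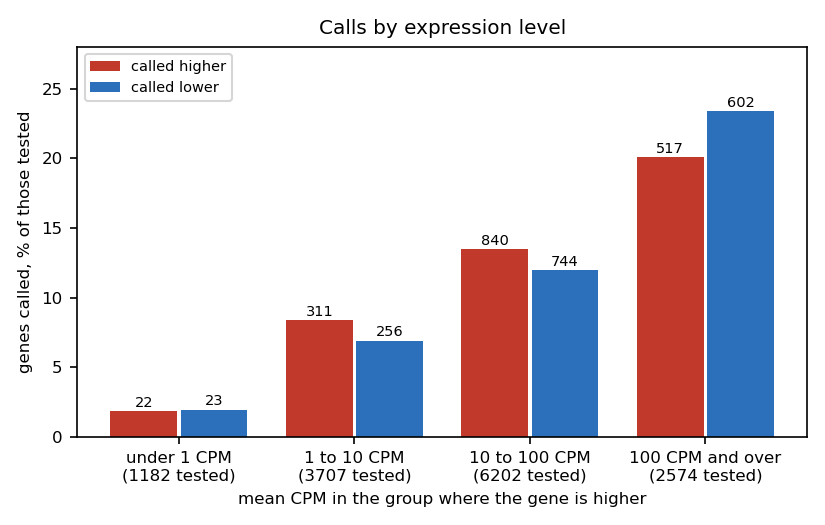
Bars show the share of the genes tested (y axis, percent) that were called higher (red) or lower (blue) in LPS Fth1-high cells, by mean CPM in the group where the gene was higher (x axis), with the number of genes above each bar. The share rises from the weakest genes, with 22 higher and 23 lower, to those at 100 CPM and over, with 517 higher and 602 lower.

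Genes nearly silent in untreated cells led the rises. Inhba, which encodes the subunit of activin A, had 0 counts in both untreated libraries and stood at 95, 149 and 170 CPM in LPS Fth1-high cells, at least 1685-fold higher when 3 counts over the untreated group are taken as the limit. Saa3, an acute phase serum amyloid A gene of macrophages, rose from 1.04 and 0.466 CPM to 2883, 9416 and 5751 CPM (log2 difference 12.83 ± 1.14 SE, adjusted p = 0.000101). Replicate 2 was the highest of the treated libraries, and all 3 lay far above the untreated pair. Nos2, the inducible nitric oxide synthase, rose from 0.583 and 0.466 to 1399, 1459 and 725 CPM (11.09 ± 0.53, adjusted p = 3.38e-06). Acod1, which makes the antimicrobial metabolite itaconate, rose from 1.42 and 1.40 to 1173, 1891 and 1106 CPM (9.94 ± 0.53, adjusted p = 3.8e-06). Slc7a2, a cationic amino acid transporter that brings in arginine, the substrate shared by Nos2 and arginase, rose from 2.71 and 1.77 to 948, 1364 and 1321 CPM (9.03 ± 0.53, adjusted p = 6.56e-06). Arg1, arginase itself, rose from 1.33 and 0.932 to 131, 286 and 174 CPM (7.38 ± 0.55, adjusted p = 2.33e-05). The groups of libraries did not overlap for any of these genes, which the naming rule required of the largest rises. Such separation held for 58.1% of all genes tested and for 99.9% of the genes called.

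Others among the 15 largest rises were the complement gene C1qa, the cytokine genes Il1a and Il12a, the neutrophil chemokine gene Cxcl3, the aminopeptidase gene Anpep and Procr, the endothelial protein C receptor gene. Anpep, also known as CD13, went from 4.37 and 4.66 to 1177, 1672 and 1373 CPM. Procr went from 0.666 and 0.466 to 208, 176 and 204 CPM (8.35 ± 0.31, adjusted p = 2.83e-06), with little spread in either group. AA467197, a small gene whose transcript holds the microRNA gene Mir147, rose from 0.25 and 0.0932 to 321, 525 and 445 CPM (11.04 ± 0.47, adjusted p = 3.38e-06). Zmynd15 rose from 0.53 to 143 CPM on average, but it overlaps Cxcl16 on the opposite strand, and without a stated counting strand, reads of the pair cannot be told apart. Cxcl16, a chemokine that is also a scavenger receptor, rose from 10.9 and 11 to 783, 913 and 977 CPM.

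**Figure D3:**
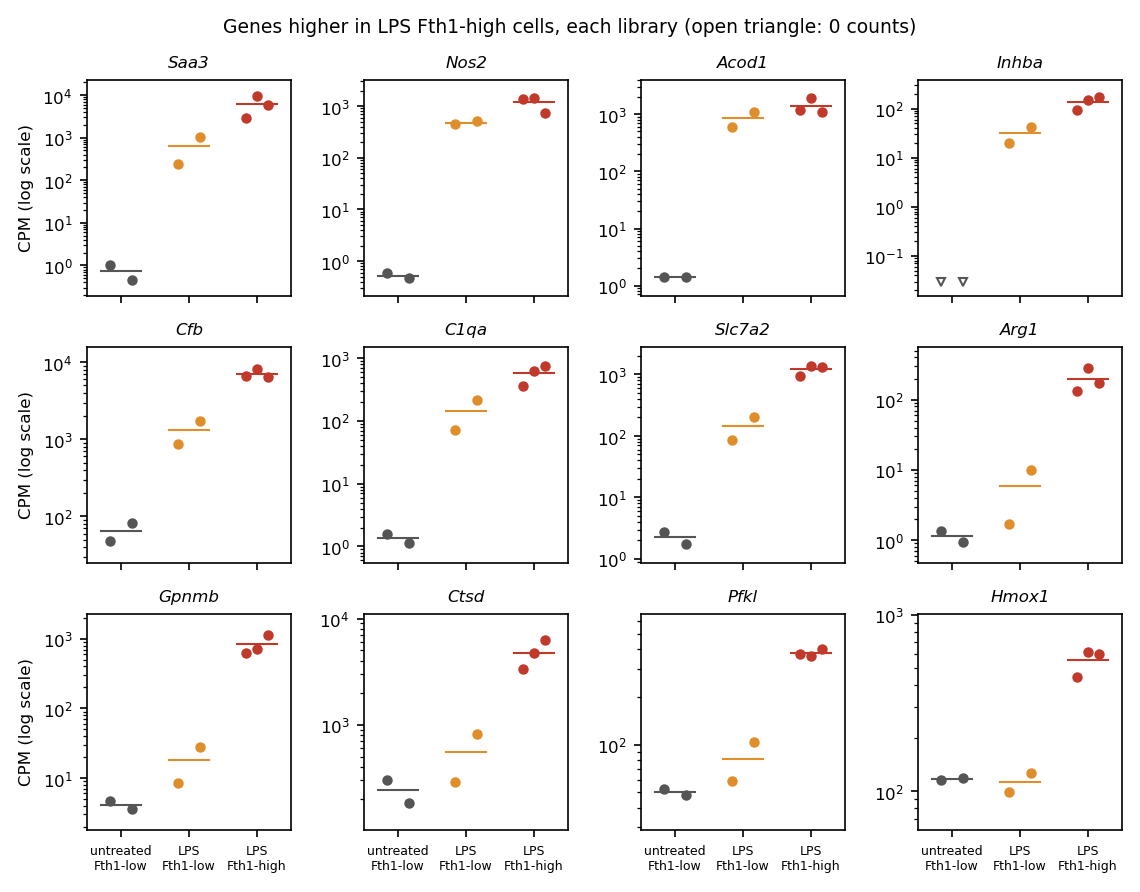
Each panel shows a gene called higher in LPS Fth1-high cells, with CPM on a log y axis; points are the 7 libraries, lines the group means, and open triangles libraries with 0 counts. For Nos2 and Acod1 the LPS Fth1-low libraries lie near the LPS Fth1-high ones, while for Hmox1 they lie near the untreated ones.

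A search of the 250 bases before the gene start in RefSeq's mouse promoters (build GRCm38.p6, both strands) gave 10407 of the 13665 genes tested an entry. The site of the inflammatory factor AP-1, TGACTCA, was present in 4% of these, in 5.75% of those called higher and in 4.39% of those called lower. Among the 15 largest rises, 11 had an entry, and AA467197, Procr and Il1a held the site. None of the 13 of the largest falls with an entry did. The windows of these 3 strongly raised genes are printed with the searched motifs in capitals. They are AA467197 at chr2:122637637-122637886 on the plus strand, Procr at chr2:155750967-155751216 on the plus strand and Il1a at chr2:129309973-129310222 on the minus strand.
AA467197: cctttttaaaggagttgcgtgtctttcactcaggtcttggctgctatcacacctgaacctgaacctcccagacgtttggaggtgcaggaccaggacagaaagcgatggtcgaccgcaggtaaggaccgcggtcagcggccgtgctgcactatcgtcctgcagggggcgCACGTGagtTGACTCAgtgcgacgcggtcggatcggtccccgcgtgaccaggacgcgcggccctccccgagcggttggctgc
Procr: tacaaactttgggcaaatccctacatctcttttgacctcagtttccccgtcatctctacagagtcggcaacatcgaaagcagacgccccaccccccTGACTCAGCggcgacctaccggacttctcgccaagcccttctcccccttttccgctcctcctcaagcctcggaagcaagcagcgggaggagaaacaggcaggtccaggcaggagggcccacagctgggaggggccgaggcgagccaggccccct
Il1a: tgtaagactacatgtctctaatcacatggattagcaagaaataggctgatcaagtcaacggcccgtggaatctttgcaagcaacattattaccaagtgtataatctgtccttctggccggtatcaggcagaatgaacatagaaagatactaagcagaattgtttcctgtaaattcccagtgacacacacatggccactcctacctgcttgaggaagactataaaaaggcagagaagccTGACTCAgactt
In AA467197 the site begins 73 bases before the gene start and follows an E-box, CACGTG, at 82 bases. In Procr it begins 154 bases before the start and overlaps a match to the antioxidant response core TGACNNNGC, which begins at the same base. In Il1a it begins 12 bases before the start. A match is a description of the letters and shows no binding. Among genes of AP-1 family proteins, Fos, Fosb, Jun and Junb were not called. Batf was called higher, and Batf3 and Atf3 lower. A part of AP-1 in the rises was not tested.

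Cytokine and chemokine genes rose as a group. Of 34 tested, 27 were higher and 4 lower, with a median log2 difference of 3.11 against 0.03 for all genes tested. The rise was shared by the dim cells: in LPS Fth1-low against untreated cells, 24 were higher and 0 lower. Over all genes tested these shares were 2.99% and 0.629%. Between the LPS groups, 7 were higher and 9 lower in LPS Fth1-high cells, against 3.68% and 4.57% of all genes tested. The list holds the leading genes just given, and it was drawn up with earlier results of these data known. Il1a rose from 2.21 and 0.653 to 423, 761 and 748 CPM. Il12a, which encodes the p35 chain of interleukin 12, rose from 0.25 and 0.0932 to 40, 82.3 and 57.5 CPM (8.19 ± 0.51, adjusted p = 8.07e-06). Il1rn, the interleukin 1 receptor antagonist, rose from 20.9 and 29.6 to 612, 739 and 708 CPM (4.77 ± 0.31, adjusted p = 8.83e-06). Agonist and antagonist of the interleukin 1 receptor were thus both higher. The 4 lower members were Ccl6, Ccl9, Il18 and Tgfb1. Tgfb1 fell from 958 and 1028 to 291, 280 and 337 CPM (-1.71 ± 0.19, adjusted p = 0.000209).

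Complement genes had the highest median of the 20 lists, 4.19, with 11 of 16 higher and 1 lower. Cfb, factor B of the alternative pathway, rose from 48 and 82.7 to 6649, 8228 and 6491 CPM (6.77 ± 0.49, adjusted p = 1.63e-05). On the CPM scale, which is not divided by gene length, its rise came directly after that of Fth1. C3, the protein on which factor B acts, rose from 777 and 953 to 3824, 4107 and 3621 CPM (2.15 ± 0.27, adjusted p = 0.00043). The 3 chains of C1q, which opens the classical pathway, rose together. C1qa went from 1.58 and 1.12 to 362, 614 and 737 CPM, C1qb from 1.62 and 2.24 to 210, 312 and 325 CPM, and C1qc from 2.29 and 2.89 to 394, 605 and 643 CPM. C1ra, a protease of the same complex, went from 4.66 and 3.73 to 200, 169 and 158 CPM, and a near-identical copy of it exists in the mouse genome, so its level is uncertain.

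Macrophage genes rose and monocyte genes fell. Of 29 macrophage identity genes tested, 18 were higher and 4 lower, with a median log2 difference of 1.13. Besides C1q, Stab1, a scavenger receptor, rose from 10.4 and 6.90 to 699, 568 and 532 CPM (6.10 ± 0.31, adjusted p = 3.38e-06). The 18 included Maf, Mertk, Adgre1 and Trem2, while Mrc1, Cd163, Lyve1 and Itgav were lower and Csf1r, Apoe and Folr2 did not pass the test. In the shorter set of macrophage markers 10 of 11 were higher, and their summed level was 3019 and 2921 CPM in untreated and 6344, 7496 and 8988 CPM in LPS Fth1-high cells. Without untreated replicate 1, 11 members of the macrophage identity list were called higher, and without LPS Fth1-high replicate 2, 2 were called lower. Lipid-associated macrophage genes, which macrophages use to take up and export lipid, gave 15 of 24 higher and 3 lower, with a median of 1.86. Gpnmb, a lysosomal membrane glycoprotein gene, rose from 4.66 and 3.54 to 616, 719 and 1151 CPM (7.64 ± 0.52, adjusted p = 1.16e-05). Abca1, the cholesterol exporter, rose from 13.6 and 13.2 to 586, 752 and 615 CPM (5.60 ± 0.38, adjusted p = 1.16e-05). The lower ones were the lipid uptake and carrier genes Cd36, Lpl and Fabp4, and Cd36 fell from 283 and 174 to 22, 11.1 and 22.9 CPM (-3.61 ± 0.33, adjusted p = 6.27e-05). Another carrier gene, Fabp5, was called higher (log2 difference 3.78, adjusted p = 0.000291), as was the lipid droplet gene Plin2 (1.74, adjusted p = 0.00984). Without untreated replicate 2, 9 members of the list were called higher.

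Of 24 nonclassical monocyte genes, 18 were lower and 2 higher, with a median of -2.99, the lowest of the 20 lists. Nr4a1, the nuclear receptor on which these cells depend, lay at 3493 and 3635 CPM in untreated and 707, 564 and 736 CPM in LPS Fth1-high cells (-2.41 ± 0.22, adjusted p = 6.06e-05). On the CPM scale, which is not divided by gene length, it showed the largest fall of any gene called. Ace, angiotensin-converting enzyme, fell from 1973 and 2419 to 23, 4.96 and 30.2 CPM (-6.83 ± 0.69, adjusted p = 0.000231), with replicate 2 the lowest of the treated libraries. S1pr5, a sphingosine-1-phosphate receptor through which patrolling monocytes leave the marrow, fell from 87.8 and 85.6 to 0.796, 0.244 and 1.03 CPM (-6.96 ± 0.40, adjusted p = 5.69e-06). Spn, Treml4 and Ceacam1 fell by 4.23, 4.59 and 4.81 on the log2 scale.

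Classical monocyte genes were lower in 14 and higher in 4 of 24, with a median of -1.51. Plac8, an abundant gene of Ly6C-high monocytes, fell from 2266 and 2192 to 336, 263 and 224 CPM (-3.02 ± 0.26, adjusted p = 4.08e-05). Ifitm6 fell from 488 and 327 to 2.59, 1.42 and 1.98 CPM (-7.69 ± 0.36, adjusted p = 3.38e-06), and reads that it shares with related Ifitm genes are a limit. F5, coagulation factor V, fell from 39 and 50.9 to 0.796, 0.244 and 1.20 CPM. The list also includes Ccr2, the receptor for monocyte recruitment, which was called lower. The 4 higher members were Ly6c2, F10, Clec4e and Clec4d, a C-type lectin receptor gene that rose from 40.4 and 44.6 to 402, 730 and 664 CPM (3.82 ± 0.34, adjusted p = 5.2e-05). Of the 10 monocyte markers kept for checking the sort, 6 were lower and Ly6c2 was higher.

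**Figure D4:**
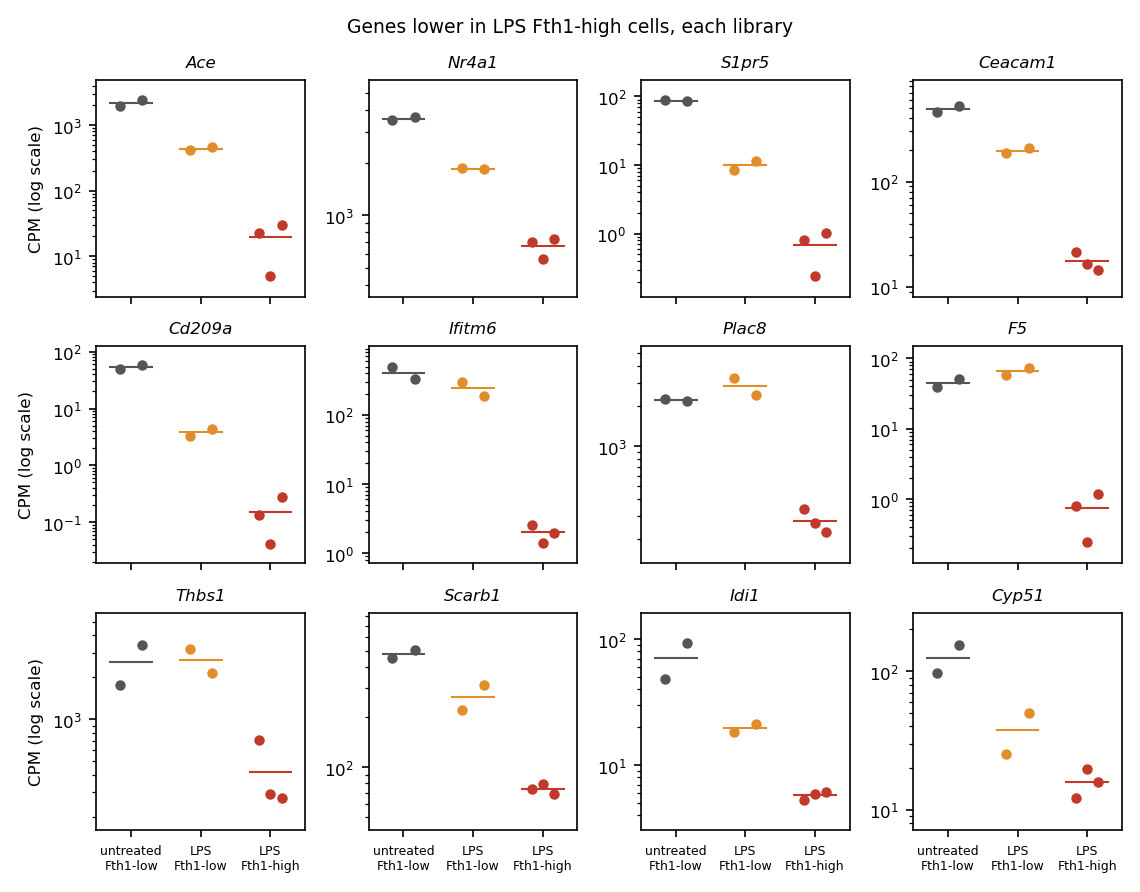
Each panel shows a gene called lower in LPS Fth1-high cells, with CPM on a log y axis; points are the 7 libraries and lines the group means. Ace, S1pr5 and Cd209a step down from untreated to LPS Fth1-low to LPS Fth1-high cells, while Plac8, F5 and Thbs1 lie as high in LPS Fth1-low as in untreated cells.

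Cd209a, a lectin gene of monocyte-derived dendritic cells, fell from 49.5 and 57.4 to 0.133, 0.0406 and 0.283 CPM (-8.32 ± 0.42, adjusted p = 3.38e-06). Of 15 dendritic cell markers, 6 were lower and none higher, and their sum was 439 and 580 CPM in untreated and 214, 164 and 154 CPM in LPS Fth1-high cells. Cd177, a neutrophil surface gene, fell from 376 and 276 to 6.57, 3.90 and 3.71 CPM (-6.13 ± 0.34, adjusted p = 4.57e-06). The sort removed Ly6G-positive cells, and the neutrophil genes Cxcr2, at 2.42 and 1.03 CPM, and Retnlg, at 1.87 and 0.559 CPM, were near 0 in the same untreated libraries. Other neutrophil markers were not: Csf3r stood at 299 and 356 CPM there and Mmp8 at 78.2 and 71.2 CPM. Which cells gave the Cd177 reads was not tested. Neutrophil markers as a list did not move 1 way: of 12 tested, Lcn2 and S100a8 were higher and Cd177 and Mmp8 lower, and the 15 summed to 794 and 727 CPM in untreated and 623, 1368 and 649 CPM in LPS Fth1-high cells. Of the alveolar macrophage markers, 13 were tested, with Marco and Olr1 higher and Ear1, Ear2 and Pparg lower, and their sum was 540 and 315 CPM against 77.4, 100.3 and 161 CPM. Ear2, which the nonclassical monocyte list also holds, carried this difference: it stood at 447 and 257 CPM against 4.45, 4.39 and 10.9 CPM, and without it the sums were 93 and 58.2 CPM against 73, 95.9 and 149.8 CPM. B cell, T cell and natural killer cell markers summed to at most 88.2 CPM per list in the 5 libraries. The part of such cells in the differences was not tested.

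Genes of glycolysis, the pathway that turns glucose into lactate, rose almost throughout: 17 of 20 were higher and none lower, with a median of 1.83. Pfkl, a phosphofructokinase at the committed step, rose from 52.3 and 48 to 370, 361 and 402 CPM (2.91 ± 0.27, adjusted p = 5.79e-05). Hk3, a hexokinase at the entry step, rose from 72.2 and 79.1 to 569, 457 and 381 CPM (2.63 ± 0.24, adjusted p = 6.16e-05). Tpi1 rose by 2.43 and Pgam1 by 1.94 on the log2 scale. The members that did not pass the test were Gpi1, Pfkm and the lactate exporter Slc16a3. Gapdh and Pgk1 were called higher too, but both have many processed copies and their levels are uncertain. Of 18 hypoxia response genes, 10 were higher and 1 lower, with a median of 0.91. Hif1a, the oxygen-regulated transcription factor, rose from 106 and 125 to 751, 641 and 584 CPM (2.51 ± 0.28, adjusted p = 0.000193). Bnip3, a mitophagy gene, rose from 11.7 and 9.32 to 72.8, 59.3 and 58.5 CPM, while Ndrg1 fell from 88.3 and 97 to 34.7, 23.7 and 28.1 CPM. Without untreated replicate 1, and likewise without replicate 2, 6 hypoxia response genes were called higher.

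Lysosome genes were higher in 18 of 40 and lower in none, with a median of 0.80. Ctsd, the aspartic protease cathepsin D, rose from 301 and 181 to 3331, 4705 and 6230 CPM (4.30 ± 0.54, adjusted p = 0.000442). Gla, which encodes alpha-galactosidase A, rose from 33.6 and 31 to 140, 167 and 162 CPM (2.27 ± 0.20, adjusted p = 5.2e-05). Tpp1 rose by 1.82 on the log2 scale. The differences of all 40 members ran from -0.19 to 4.30. The count rests on both untreated libraries: 10 members were called without replicate 1 and 9 without replicate 2. The E-box CACGTG, the core of the CLEAR element that the factors Tfeb, Tfe3 and Mitf bind in lysosomal genes, was present before the start of 7 of the 14 raised members with a promoter entry (Atp6v1a, Ctsd, Ctsl, Gaa, Gla, Lgmn and Mcoln1). Among genes with an entry, it was present in 4 of 16 members not called, 9.66% of all genes tested and 11.7% of all genes called higher. Of the cholesterol synthesis genes called lower, 3 of the 8 with an entry also held it (Hsd17b7, Insig1 and Sc5d). Whether the factors act on any of these genes was not tested. Of the factors, Mitf rose from 15.2 and 19.7 to 98.2, 100.4 and 122 CPM (2.62 ± 0.25, adjusted p = 8.55e-05), Tfeb was called lower and Tfe3 was not called. The window of Ctsd, the member with the largest rise in CPM, is chr7:142387828-142388077 on the minus strand of GRCm38.p6, with all searched motifs in capitals.
Ctsd: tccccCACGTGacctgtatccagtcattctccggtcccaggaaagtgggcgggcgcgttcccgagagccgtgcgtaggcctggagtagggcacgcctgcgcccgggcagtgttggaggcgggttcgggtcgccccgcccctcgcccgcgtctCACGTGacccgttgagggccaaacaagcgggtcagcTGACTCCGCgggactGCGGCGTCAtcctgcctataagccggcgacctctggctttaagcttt
It holds the E-box at 245 and at 98 bases before the gene start, and TGACNNNGC at 62 bases and, on the other strand, at 47 bases.

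Of 32 iron handling genes, 14 were higher and 5 lower, with Fth1 itself among the 14 and a median of 0.47, or 0.84 with a minimum count of 50. Slc25a37, a mitoferrin that carries iron into mitochondria, rose from 56.5 and 60.8 to 484, 471 and 409 CPM (2.95 ± 0.21, adjusted p = 1.41e-05). Slc39a14, an importer of iron and zinc, rose from 5.66 and 4.66 to 36.5, 54.3 and 34.3 CPM (3.00 ± 0.33, adjusted p = 0.000184). Hmox1, haem oxygenase, which frees iron from haem, rose from 116 and 118 to 444, 619 and 596 CPM (2.24 ± 0.24, adjusted p = 0.00015). The transferrin receptor gene Tfrc, the divalent metal transporter genes Slc11a1 and Slc11a2 and the ferritin cargo receptor gene Ncoa4 were also called higher, while the iron exporter gene Slc40a1 was not called. The 5 lower members were Trf, Hfe, Heph, Flvcr1 and another mitoferrin gene, Slc25a28 (log2 difference -1.37, adjusted p = 0.000691). Without untreated replicate 2, 9 members were called higher. Among 25 targets of the antioxidant factor NRF2, 11 were higher and 6 lower, with a median of 0.53. Slc7a11, the cystine importer, rose from 3.12 and 3.82 to 109, 248 and 161 CPM (5.65 ± 0.42, adjusted p = 1.85e-05). Gclm, a subunit of the enzyme that begins glutathione synthesis, rose by 2.00 and Srxn1 by 2.31 on the log2 scale. The 6 lower members were Tkt, Taldo1, G6pdx, Gss, Gsr and Gstm1, the first 3 of which are enzymes of the pentose phosphate pathway. Without untreated replicate 1, 3 members were called lower.

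Interferon-stimulated genes split. Of 38 tested, 13 were higher and 3 lower, with a median of 0.38, or 0.80 without untreated replicate 2. The guanylate-binding and related GTPase genes, targets of interferon gamma, led the list. Gbp2 rose from 86.1 and 87.3 to 1070, 1155 and 821 CPM (3.55 ± 0.29, adjusted p = 3.26e-05), Gbp5 from 18.3 and 28.1 to 345, 288 and 207 CPM, and Iigp1 from 6.45 and 2.33 to 239, 166 and 128 CPM. Gbp genes are close copies of each other, so reads may have been shared. Without untreated replicate 2, LPS Fth1-high replicate 2 or LPS Fth1-high replicate 3, 1 member was called lower. Members not called included Ifit2, Ifit3, Mx1, Oas2 and Irf7. Among genes with a promoter entry, the interferon-stimulated response element was present in 10 of the 11 raised members and 6 of 14 not called. Its share was 3.4% over all genes tested with an entry and 5.52% over those of them called higher. The window of Gbp2 is chr3:142620413-142620662 on the plus strand of GRCm38.p6, shown because this gene had the smallest adjusted p of the list.
Gbp2: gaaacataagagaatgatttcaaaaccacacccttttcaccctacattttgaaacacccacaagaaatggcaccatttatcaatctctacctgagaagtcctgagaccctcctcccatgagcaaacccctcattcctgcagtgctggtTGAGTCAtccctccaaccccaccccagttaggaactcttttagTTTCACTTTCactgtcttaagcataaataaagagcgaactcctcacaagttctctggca
The element begins 59 bases before the gene start, and TGACTCA lies on the other strand at 102 bases.

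Antigen presentation genes rose in part. Of 15 MHC class II genes, 8 were higher and none lower, with a median of 0.93. H2-Ab1 rose from 792 and 940 to 4269, 2709 and 4343 CPM (2.12 ± 0.33, adjusted p = 0.0014) and H2-Eb1 from 445 and 515 to 2781, 1606 and 2608 CPM (2.28 ± 0.32, adjusted p = 0.00077). Replicate 2 was the lowest LPS Fth1-high library for both. Of this list 5 members were called without untreated replicate 1, and 3 without untreated replicate 2. Leaving out LPS Fth1-high replicate 1 or 3 gave 5. Cd74, the class II invariant chain, rose from 2812 and 3397 to 8538, 5098 and 8097 CPM, with an adjusted p of 0.0245. That call was lost without untreated replicate 1 (0.187), untreated replicate 2 (0.112), LPS Fth1-high replicate 1 (0.0536) or LPS Fth1-high replicate 3 (0.0764). B2m, the light chain of class I, rose from 3095 and 3426 to 5479, 6392 and 7053 CPM, with an adjusted p of 0.0196. It too lost its call without untreated replicate 1 (adjusted p = 0.173), untreated replicate 2 (0.119), LPS Fth1-high replicate 2 (0.0641) or LPS Fth1-high replicate 3 (0.0856).

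Cholesterol synthesis genes fell. Of 24 tested, 15 were lower and none higher, with a median of -1.57. Idi1, an isomerase of the mevalonate pathway, fell from 48.1 and 93 to 5.24, 5.93 and 6.08 CPM (-3.61 ± 0.28, adjusted p = 2.39e-05). Cyp51, a sterol demethylase, fell from 97.4 and 154 to 12.1, 19.7 and 15.8 CPM (-2.98 ± 0.31, adjusted p = 0.000126). Insig1 and Msmo1 fell by 1.97 and 2.07 on the log2 scale. The 15 also included Srebf2, the transcription factor that drives the pathway. Untreated replicate 2 was the higher of the pair for Idi1, Cyp51, Insig1 and Msmo1, and both untreated libraries lay above every LPS Fth1-high library. With Abca1 higher, synthesis genes and an export gene moved in opposite directions. Scarb1, a receptor for high-density lipoprotein, fell from 448 and 505 to 73.8, 78.8 and 69.3 CPM (-2.69 ± 0.21, adjusted p = 2.48e-05).

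Matrix and repair genes rose in 14 of 28 and fell in 6, with 1.84 as the median. Mmp14, a matrix protease held in the cell membrane, rose from 7.29 and 6.90 to 1102, 1321 and 1196 CPM (7.41 ± 0.34, adjusted p = 3.38e-06). Plau, urokinase, rose from 6.25 and 7.08 to 57.1, 47.4 and 64.4 CPM (3.08 ± 0.23, adjusted p = 2.19e-05). Tgfbi, a matrix protein gene induced by TGF-beta, rose from 1544 and 1495 to 5665, 7714 and 6225 CPM. Thbs1, thrombospondin 1, fell from 1765 and 3371 to 705, 290 and 273 CPM (-2.60 ± 0.46, adjusted p = 0.00312). Without untreated replicate 1, untreated replicate 2 or LPS Fth1-high replicate 1, 3 members of the list were called lower. Alternative activation genes gave 8 higher, Arg1 and Slc7a2 among them, and 6 lower of 19. Their median was -0.46, and it changed sign, to 0.44, when only the 5 libraries were fitted and to 0.46 without untreated replicate 1, 0.23 without untreated replicate 2, and leaving out LPS Fth1-high replicate 1 gave 0.02. With a minimum count of 50, which drops weak members, it was 1.34. Clec10a, a lectin of this list, fell from 37.7 and 38.7 to 4.71, 5.32 and 4.95 CPM (-2.93 ± 0.19, adjusted p = 8.76e-06).

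Receptor genes changed in both directions. Of 29 trafficking receptor and adhesion genes, 10 were lower and 8 higher, with a median of -0.73 that moved to -0.11 without untreated replicate 1, and leaving out LPS Fth1-high replicate 2 gave -0.42. Fpr2, a formyl peptide receptor, rose from 33 and 25.8 to 566, 922 and 556 CPM (4.53 ± 0.38, adjusted p = 3.84e-05). Ccrl2, an atypical receptor that binds chemerin, rose from 95 and 99.1 to 1155, 1297 and 1235 CPM (3.66 ± 0.28, adjusted p = 2.33e-05). Lower members included Ccr2, Cx3cr1, S1pr4, S1pr5, Itga4 and Itgal, receptors of blood monocytes. Pattern recognition and scavenger receptors gave 12 higher and 7 lower of 28, with a median of 0.27, or 0.52 without untreated replicate 1. Tlr4 and Cd14, the sensors of LPS, were among the higher, and Tlr7, Tlr13 and Nod1 among the lower. The 7 lower became 3 without untreated replicate 2, and 4 without untreated replicate 1, LPS Fth1-high replicate 2 or LPS Fth1-high replicate 3. Olr1, a receptor for oxidised lipoprotein, rose from 6.62 and 5.87 to 52.5, 74.2 and 84.2 CPM (3.49 ± 0.31, adjusted p = 5.2e-05).

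Of 45 transcription factors of the monocyte to macrophage path, 16 were lower and 10 higher, with a median of -0.03. Apart from Hif1a, Mitf and Nr4a1, the naming rule gave Cebpd, a C/EBP factor of myeloid cells, which fell from 61.2 and 61.6 to 13.7, 16.1 and 19.8 CPM (-1.89 ± 0.20, adjusted p = 0.000129). Lower ones included Spi1, Klf2, Irf4, Irf5, Pparg, Batf3 and Atf3, and higher ones Maf, Nr1h3, Tfec, Batf and Egr2. Fos, Fosb, Jun and Junb were not called. Of 32 cell cycle genes, 7 were higher and none lower, with a median of 0.83. Over all genes tested, 12.4% were higher and 11.9% lower. Mki67, a marker of cycling cells, rose from 8.91 and 13.2 to 78.6, 142 and 91.6 CPM (3.24 ± 0.32, adjusted p = 9.87e-05). Its mean in LPS Fth1-low cells was 40.4 CPM. Most of the list was not called, including the mitosis genes Top2a, Cdk1, Ccnb1, Ccna2, Plk1 and Aurka. Only 3 of the list were called when any of untreated replicate 1, untreated replicate 2, LPS Fth1-high replicate 2 or LPS Fth1-high replicate 3 was left out.

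**Figure D5:**
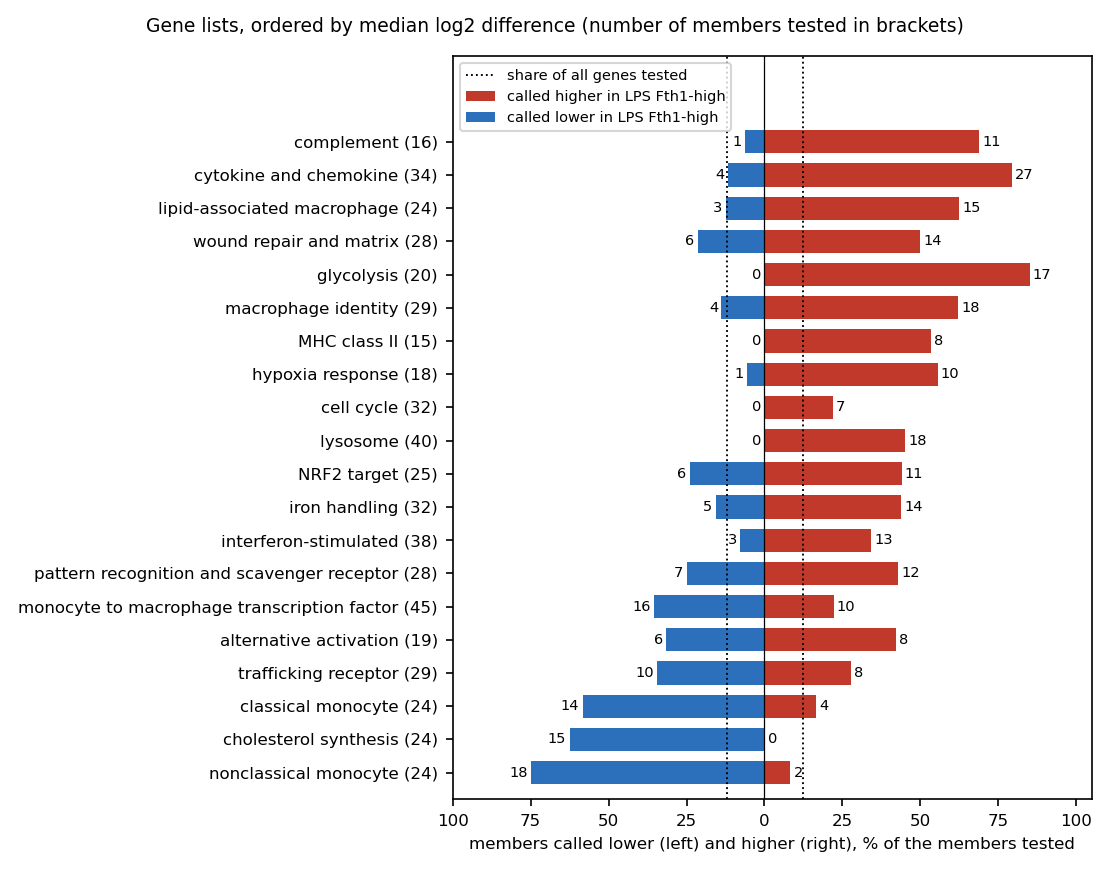
Bars show, for each of 20 gene lists, the percent of the members tested that were called higher (right, red) and lower (left, blue) in LPS Fth1-high cells, with the number of genes beside each bar and the lists ordered by median log2 difference. Dotted lines mark 12.4% higher and 11.9% lower among all genes tested; nonclassical monocyte genes, with 18 lower, stand at the bottom and complement genes, with 11 higher, at the top.

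The lists share members, and all were drawn up with earlier results known, so the bars are a description and no list is set against another by a test. Among the 10 genes with the largest falls in mean CPM, Coro1a, Lsp1, Adgre5, Cytip, Ptprc and Flna belong to none of the lists. Coro1a, which encodes the actin regulator coronin 1A, fell from 2685 and 2083 to 483, 562 and 511 CPM, and Lsp1, an actin-binding protein gene of leukocytes, from 1769 and 1469 to 114, 103 and 110 CPM. Adgre5, the adhesion receptor CD97, fell from 2059 and 2527 to 263, 289 and 299 CPM (-3.01 ± 0.21, adjusted p = 1.41e-05), and Cytip, a regulator of integrin adhesion, fell from 1400 and 1480 to 62.6, 44.4 and 64.8 CPM (-4.65 ± 0.27, adjusted p = 5.71e-06). Ptprc, the leukocyte antigen CD45, fell from 2107 and 2972 to 1062, 901 and 898 CPM.

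Weak genes gave near on-off patterns. At most 3 counts over a whole group were found for 59 genes called higher, 25 of which had 0 counts in untreated cells, and for 20 genes called lower, 2 of which had 0 counts in LPS Fth1-high cells. These depend on depth, and a fold is given only against 3 counts over the empty group, which is 0.0864 CPM for the untreated and 0.0441 CPM for the LPS Fth1-high libraries. Btbd16 had 0 counts in untreated cells and 6.30, 11.4 and 10.7 CPM in LPS Fth1-high cells, at least 116-fold higher. Dcstamp, which encodes a transmembrane protein needed for the fusion of macrophages and osteoclasts, had 0 counts in untreated cells and 1.99, 1.99 and 4.52 CPM in LPS Fth1-high cells, at least 35.3-fold higher. Prss46, a serine protease gene, went from 0 counts to 2.92, 7.56 and 4.45 CPM, at least 60.7-fold higher. Sox6, a transcription factor gene, went from 0 counts to 0.73, 5.81 and 1.34 CPM, and its call was lost without untreated replicate 1 and without replicate 2 (adjusted p = 0.0832 and 0.0531). In the other direction Fam83a had 5.08 and 4.75 CPM in untreated and 0 counts in LPS Fth1-high cells, at least 113-fold lower. Lmo1, a transcriptional cofactor gene, was at 9.29 and 7.18 CPM against 1 count in 1 of the 3 treated libraries. Il31ra, a cytokine receptor gene, was at 7.29 and 11.8 CPM against 0.199 CPM in replicate 1 and 0 counts in the other 2.

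The LPS Fth1-low libraries, treated but dim for the reporter, placed the named genes between or outside the groups compared, and the comparisons with them share libraries with the main one. Some genes were near their LPS Fth1-high level in LPS Fth1-low cells. Acod1 was at 598 and 1096 CPM there, with a log2 difference of 9.23 from untreated cells (adjusted p = 2.51e-05) and of 0.71 between the LPS groups (adjusted p = 0.253). Gbp2 was at 953 and 1410 CPM, and it differed by 3.77 from untreated cells (adjusted p = 0.000168) and by -0.22 between the LPS groups (adjusted p = 0.671). Hmox1 was close to its untreated level, at 98.8 and 127 CPM, with -0.03 from untreated (adjusted p = 0.988) and 2.27 between the LPS groups (adjusted p = 0.000697). Gpnmb was at 8.37 and 27.7 CPM, and 5.22 of its difference lay between the LPS groups (adjusted p = 0.000334) and 2.41 between LPS Fth1-low and untreated cells (adjusted p = 0.0188). Among falling genes, Plac8 was at 3280 and 2408 CPM, F5 at 58.6 and 74.3 CPM and Thbs1 at 3181 and 2141 CPM. For these the difference from untreated cells did not pass the test (adjusted p = 0.682, 0.609 and 0.991) and that between the LPS groups did (adjusted p = 0.000184, 0.000121 and 0.00836). Il12b, the p40 chain of interleukin 12, peaked in LPS Fth1-low cells: it was at 36.8 and 73.8 CPM there, at 5.71, 3.98 and 6.54 CPM in LPS Fth1-high cells, and had 1 count in untreated replicate 1 and 0 in replicate 2. It was lower in LPS Fth1-high than in LPS Fth1-low cells by a log2 difference of -3.44 ± 0.33 (SE, adjusted p = 0.000426), whereas Il12a, the partner chain, was higher by 1.40 (adjusted p = 0.0348). A level of LPS Fth1-low replicate 1 rests on few reads, where 1 count is 1.67 CPM.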

How the data were processed

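The 7 libraries were made from 25 ng of RNA of sorted cells each, selected for poly(A), amplified over 15 PCR cycles after a strand-marking protocol and read from both ends for 58 bases. The deposited values are raw counts per gene and library for 26130 genes, 6880 of them without a count. The submitters' processing notes name DRAGEN, DESeq2 and the mouse build mm10; no version, annotation or counting strand is given there. No other filter is stated in the labels' protocols.

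Genes passing edgeR's filterByExpr were fitted with its robust quasi-likelihood test (edgeR 4.0.16, R 4.3.3), TMM scaling and 3 groups over all 7 libraries (4 residual degrees of freedom). Tests were two-sided and p-values adjusted by Benjamini and Hochberg over 13665 genes; SE is the log2 difference divided by the root of F. CPM are counts scaled to the TMM-adjusted library size. The test was checked on simulated data. The depth ranged from 637787 to 27997007 counts, and 1 count was 0.0353 to 1.67 CPM. DESeq2 1.42.0 and limma 3.58.1 (voom) were among the alternatives, with other scalings, filters, sets of libraries and a replicate block.

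The comparison, the gene lists and the naming rule were chosen with earlier results of these data known. Among called genes whose libraries did not overlap between groups, the rule named the 15 largest rises and falls at 10 CPM or more. In the same way it named the 8 largest of each at 1 to under 10 CPM. It added the 10 largest changes of each direction in mean CPM, up to 4 members per list by adjusted p and the sort genes. Called genes with at most 3 counts in a group and a mean of at least 1 CPM in the other were also named. Gene models, annotated pseudogenes, ribosomal RNA, mitochondrial, Y-linked, immunoglobulin and T cell receptor genes and Xist were skipped. Other members of a list are named only by their call. Some genes that the rule or a list gave are not reported here. Of 188 genes named by the rule, 60 share bases with an opposite-strand gene and 30 with a same-strand gene in GENCODE (GRCm38), so their levels may include reads of a neighbour. The 4 motifs were searched in RefSeq promoters matched by symbol.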

Additional observations from a re-analysis of the deposited data

How the results depend on the processing

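No named gene changed direction under the alternatives run. More genes were called higher than lower in the test reported, whereas fewer were with RLE scaling (1684 against 1693), total counts, limma-voom and without untreated replicate 1 (955 against 963). Among list medians, that of the alternative activation list changed sign as given above, and that of the transcription factor list, which was close to 0, did so without untreated replicate 2. The trafficking receptor median was -0.21 with a minimum count of 50, -0.36 with the replicate block and -0.42 in libraries thinned to equal depth. Under the scalings, filters, sets of libraries and tools tried, the genes called higher numbered 1498 (total counts only, with 1741 lower) to 2207 (only the 5 libraries compared), with 2136 by limma-voom and 1663 by DESeq2; those called lower numbered 1500 (replicate block) to 2226 (limma-voom), with 1639 by DESeq2. Leaving out 1 library at a time gave 955 to 2184 genes higher and 948 to 2012 lower; where 1 untreated library was left, it was assumed to vary like the other groups. The ranges over these settings for members called higher were 11 to 19 for macrophage identity, 9 to 16 for lipid-associated macrophage, 9 to 22 for lysosome, 9 to 14 for iron handling, 6 to 11 for hypoxia response, 3 to 8 for MHC class II and 3 to 10 for cell cycle. The lower calls of the nonclassical monocyte list ranged from 17 to 18 and of the cholesterol synthesis list from 10 to 15.

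With the replicate block, 1619 genes were higher and 1500 lower, and B2m (adjusted p = 0.074) and Hpgd (0.160) lost their calls among the named genes. The labels do not say that equal numbers share an animal or day. Same-numbered deviations correlated across genes at 0.0946 and 0.298 between the groups compared, at 0.391 and 0.256 between the LPS groups and at 0.0833 between the Fth1-low groups. All of these were positive, and not all were over 0.1. In a group of 2 libraries the deviations mirror each other, so these values cannot decide whether libraries are paired. The numbers were not used to pair libraries in the test reported. Of the 186 named genes called, 152 kept their call without untreated replicate 1 and 157 without replicate 2. Depth limits the weak genes most: at 1 count per library the LPS Fth1-low replicate 1 cannot show a level under 1.67 CPM.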

Other observations

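Genes outside the lists also separated the groups. Tnfaip8l3, which encodes a lipid transfer protein of the TIPE family, rose from 0.0833 and 0.0932 to 25.1, 30.6 and 22.9 CPM. Ak4, a mitochondrial adenylate kinase gene, was at 0.0416 and 0.0932 CPM in untreated and 15.9, 8.82 and 14.2 CPM in LPS Fth1-high cells (log2 difference 7.62, edgeR adjusted p = 0.000197). Orm1, which encodes the acute phase protein orosomucoid, was at 0 and 0.186 CPM against 7.36, 16.1 and 16.1 CPM, with at most 0.514 CPM in LPS Fth1-low cells. The difference between the LPS groups was 4.76 on the log2 scale (edgeR adjusted p = 0.00866).

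Among the falls, Pglyrp1, a peptidoglycan recognition protein gene, went from 81.2 and 62.5 to 0.863, 0.772 and 2.01 CPM. Cd300lg went from 90.6 and 60.4 to 1.66, 1.30 and 1.20 CPM, and Rgs18, a regulator of G protein signalling, from 38 and 33.1 to 0.531, 0.284 and 0.495 CPM. Gjb2, a connexin gene, was at 17.9 and 18.7 CPM in untreated cells, while 2 of the 3 LPS Fth1-high libraries had 0 counts and the other 0.283 CPM. Hpgd, the enzyme that inactivates prostaglandins, fell from 283 and 254 to 6.37, 0.61 and 7.74 CPM. Rem1, a small GTPase gene, was at 4.71 and 4.47 CPM against 0, 0.0406 and 0.0707 CPM.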
